A study of Mus musculus with 6 samples.

Results

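Tek, Tie1, Pecam1, Esam, Cdh5, Kdr, Emcn, Egfl7 and Angpt1 are genes best known from blood vessels, and several of them are also used to recognise or study blood stem cells. They were examined here as a named set of 9 genes out of 18193 measured genes. The set was listed by symbol, with no filter on a measured value but with earlier results of these data known. The 9 genes had 14 probe sets that carry only their symbol, and each gene was represented by the one with the brightest 6-array mean. The data are Affymetrix Mouse Genome 430 2.0 arrays of LKS+ cells, the marrow cells that lack lineage markers, are high in c-Kit and carry Sca-1. This compartment contains the blood stem cells and multipotent progenitors. Wild-type (WT) mice gave 3 arrays and Apcmin mice gave another 3, and the labels name neither treatment, strain, age nor time for either group. The Min allele of Apc is a germline mutation, so the marrow stroma and vessels of Apcmin mice carry it as well as the sorted cells. Apc encodes a scaffold of the complex that marks beta-catenin for degradation. The series' design text speaks of cells isolated per mouse, and the sample titles give only a replicate number, so each array was taken as 1 mouse, and the p-values measure the spread between these samples only.

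Blood stem cells arise in the embryo from hemogenic endothelium, and adult stem cells keep part of the vessel gene programme. Tek (Tie2) is the tyrosine kinase receptor for the angiopoietins, and its ligand Angpt1 is known in marrow for holding stem cells in a quiescent state. Tie1 is the sister receptor of Tek, binds no angiopoietin firmly on its own and modulates Tek. Kdr (Flk1) is the main signalling receptor for VEGF on endothelium and marks the mesodermal precursors of blood and vessels. Pecam1 (CD31) and Esam are immunoglobulin-type adhesion molecules of endothelial junctions, platelets and stem cells. Cdh5 (VE-cadherin) builds the adherens junctions of endothelium and binds beta-catenin through its tail. Emcn (endomucin) is a sialomucin of vessels and stem cells, and Egfl7 is a secreted protein of endothelium and blood progenitors whose gene also carries miR-126.

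Among all probe sets measured, 0 of 45037 differed between the genotypes at an adjusted p under 0.05 (limma, 0%), with 1714 at an unadjusted p under 0.05. Median log2 intensity per array lay between 4.12 and 4.18. WT replicate 1 stood somewhat apart: over 15155 probe sets whose 6-array log2 mean was 6 or more, its mean absolute deviation from the 6-array mean was 0.226, against 0.144 to 0.173 on the other arrays. The value table holds no detection calls. A gene was therefore called well above background where its log2 intensity was at least 6 on every array, which held for 43.9% of all genes. As a measured reference, 71 olfactory and vomeronasal receptor genes, which are not known in marrow, had a median of 1.46 and a 95th percentile of 3.14, and 0 of the 71 met the level of 6 on every array.

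Of the 9 genes, 6 were well above background: Angpt1, Tek, Tie1, Pecam1, Emcn and Egfl7. Esam was at least 6 on 5 of the 6 arrays and below it on WT replicate 1. Kdr (mean 3.09) and Cdh5 (mean 2.20) lay under the 95th percentile of the sensory receptor genes, so the VEGF receptor and the cadherin of endothelium gave no signal that could be separated from background. Probe sets differ in how brightly they report a transcript, which limits any comparison of levels between genes, also with the sensory receptor genes. For that reason the 9 genes are not ranked against each other by level.

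**Figure D1:**
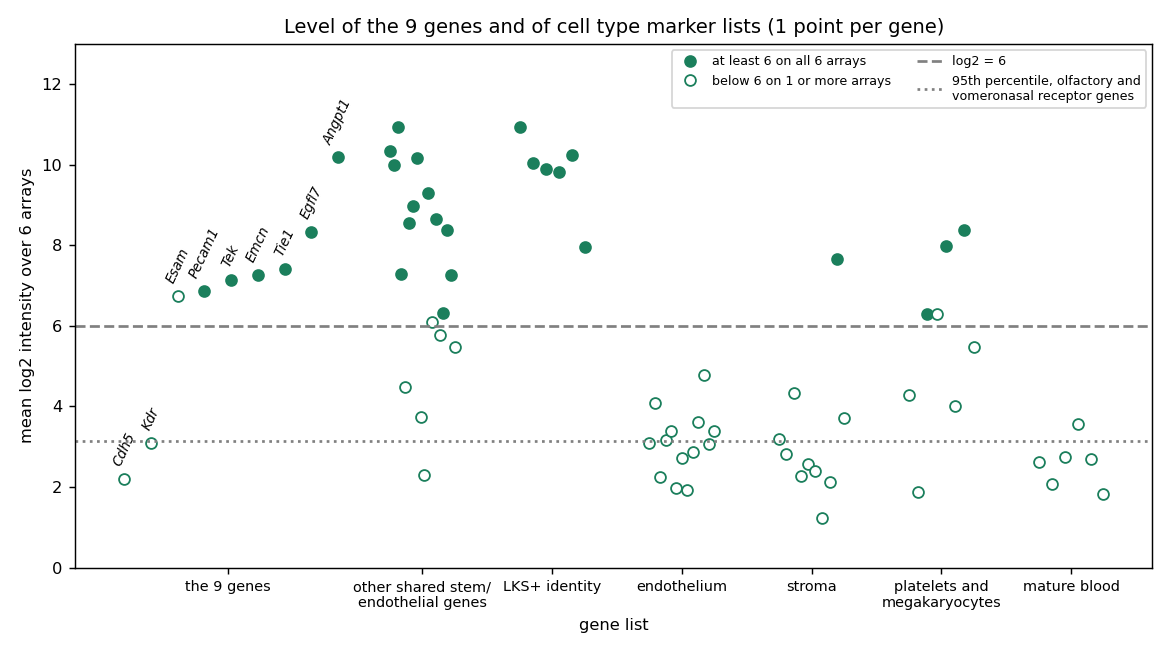
Mean log2 intensity over the 6 arrays (vertical axis), 1 point per gene, for the 9 genes and for lists of marker genes (horizontal axis). Filled points are at least 6 on all 6 arrays, the dashed line marks 6 and the dotted line the 95th percentile of olfactory and vomeronasal receptor genes at 3.14. Kdr and Cdh5 lie below the dotted line, as do many endothelial and stromal markers, while all 6 measured LKS+ identity genes are filled.

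Marker lists place these levels. All 6 measured LKS+ identity genes (Kit, Cd34, Flt3, Meis1, Hlf and Mecom) were well above background. All 6 were also higher in Apcmin, with a median difference of 0.08 and 0 called, beside 55.9% higher among the 7982 genes well above background. Of 13 genes used here as markers of endothelium, 0 reached 6 on any array, and their means ran from 1.92 for Mmrn2 to 4.78 for Ramp2. Their summed linear intensity was 118 to 136 on the WT arrays and 129 to 157 on the Apcmin arrays. Of these 13 markers 10 were lower and 3 higher in Apcmin, with a median difference of -0.14 and 0 called. Beside this, 70.4% of the sensory receptor genes (median -0.08) and 57.0% of all genes were lower in Apcmin. Without Ramp2, which was set aside after its values were seen, the sum was 97.2 to 117 in WT and 83.6 to 117 in Apcmin. The vessel diaphragm protein Plvap (3.61), the tight-junction protein Cldn5 (4.07) and the VEGF receptors Flt1 (3.16) and Flt4 (3.38) were all in that range, on the log2 scale. Of 10 stromal genes, 1 was well above background, the PDGF receptor Pdgfrb, and the collagen Col3a1 (2.27) and the proteoglycan Lum (1.22) were low. The stromal genes were 7 lower and 3 higher in Apcmin, with a median of -0.09. All 6 measured markers of mature blood were below 6 on every array, 5 of them lower in Apcmin. Pecam1, Esam and Tie1 are also known from megakaryocytes and platelets, and 3 of 8 genes of that lineage were well above background, among them Pf4, which varied between 7.13 and 8.66 over the arrays without separating the genotypes. The summed intensity of the 8 genes was 679 to 1043 in WT and 649 to 1037 in Apcmin, and its part in the levels of the 9 genes was not tested. In sorted bulk cells, fewer expressing cells and less RNA per cell cannot be told apart.

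For the 5 of 9 genes with a RefSeq promoter entry (Tek, Tie1, Kdr, Emcn and Egfl7, 7 entries in all, assembly GRCm38.p6), the 250 bases before the annotated start were searched on both strands for letters that factors shared by blood and endothelium can recognise. These were AGGAAG and CGGAAG for ETS factors, AGATAA for GATA factors and CAGATG for the E-box of basic helix-loop-helix factors such as Tal1. The 3 tyrosine kinase receptors are printed because 2 of them were well above background and 1 was not, and the most upstream Egfl7 entry because Egfl7 had the same sign of difference on all its probe sets. The sequences run 5′ to 3′ on the strand of the gene, and capitals mark the matches.
Tek (chr4:94739039-94739288, plus strand): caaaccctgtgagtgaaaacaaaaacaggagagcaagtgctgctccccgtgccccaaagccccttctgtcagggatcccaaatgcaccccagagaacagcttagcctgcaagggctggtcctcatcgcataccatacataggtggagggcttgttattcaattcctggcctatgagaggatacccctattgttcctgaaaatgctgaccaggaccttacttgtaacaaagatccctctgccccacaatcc
Tie1 (chr4:118489850-118490099, minus strand): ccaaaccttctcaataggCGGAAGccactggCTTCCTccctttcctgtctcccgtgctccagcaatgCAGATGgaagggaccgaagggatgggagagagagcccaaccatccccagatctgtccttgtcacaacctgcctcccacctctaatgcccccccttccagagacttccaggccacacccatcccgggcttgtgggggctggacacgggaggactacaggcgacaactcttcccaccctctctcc
Kdr (chr5:75978456-75978705, minus strand): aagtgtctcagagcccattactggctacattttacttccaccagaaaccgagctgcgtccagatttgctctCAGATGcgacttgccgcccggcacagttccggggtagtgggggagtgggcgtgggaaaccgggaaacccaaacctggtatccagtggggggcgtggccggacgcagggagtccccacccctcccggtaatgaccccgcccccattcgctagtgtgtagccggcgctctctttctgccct
Egfl7 (chr2:26580833-26581082, plus strand): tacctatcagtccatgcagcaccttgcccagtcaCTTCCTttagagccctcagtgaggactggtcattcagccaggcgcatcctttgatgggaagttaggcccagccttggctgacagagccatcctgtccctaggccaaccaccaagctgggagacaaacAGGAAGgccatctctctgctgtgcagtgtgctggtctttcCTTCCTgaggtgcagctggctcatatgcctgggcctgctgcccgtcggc

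The Tek stretch held none of the 4 motifs. Tie1 held AGGAAG 1 time, CGGAAG 1 time and CAGATG 1 time, and Kdr held CAGATG 1 time. The upstream Egfl7 entry held AGGAAG 3 times. Of the other Egfl7 entries, 1 held it 1 time and 1 held no motif, and the Emcn entry held it 2 times. Among 32851 promoter entries of the same length, AGGAAG was found in 29.5%, CGGAAG in 13.6%, AGATAA in 10.0% and CAGATG in 14.4%. Both the detected receptor Tek and the receptor Kdr at background lacked AGGAAG and CGGAAG in this window. Other letters that ETS factors can recognise were not searched for, and these matches are descriptions of letters, not of binding.

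Angpt1, the ligand of the set, was bright on every array and nearly level between the genotypes. Its brightest probe set (1439066_at) was at 9.91, 10.29 and 10.25 on WT replicates 1 to 3 and at 10.36, 10.11 and 10.19 on Apcmin replicates 1 to 3. The lowest value was WT replicate 1, and the groups overlapped. The WT mean was 10.15 ± 0.21 and the Apcmin mean 10.22 ± 0.12 (SD, n = 3 each on the log2 scale, as for all genes here). Apcmin minus WT was 0.07 (standard error 0.17, 95% confidence interval -0.32 to 0.47, limma adjusted p = 0.970). Without WT replicate 1 the difference was -0.05. The second probe set (1421441_at) gave 8.14 ± 0.27 and 8.23 ± 0.38, a difference of 0.09 that also changed sign when WT replicate 1 (-0.04) or Apcmin replicate 3 (-0.12) was left out. The interval of the brightest probe set, not adjusted for the number of tests, leaves out increases of more than 0.47 and decreases of more than 0.32. That of the second probe set was wider, from -0.48 to 0.67, and does not leave out changes of that size.

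Tek, the receptor for Angpt1, had the lowest p among the probe sets that stand for the 9 genes, and it did not pass. Its only probe set (1418788_at) was at 7.15, 7.38 and 7.43 on the WT arrays and at 7.23, 6.79 and 6.80 on the Apcmin arrays. Apcmin replicates 2 and 3 lay below all WT arrays, and Apcmin replicate 1 lay among them. Tek averaged 7.32 ± 0.15 in WT against 6.94 ± 0.25 in Apcmin, and differed by -0.38 (standard error 0.18, interval -0.81 to 0.05, 0.768-fold) with an adjusted p of 0.954 in limma and an unadjusted p of 0.0738. With each array left out in turn the difference lay between -0.53 and -0.31.

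Tie1, the sister receptor, had a smaller difference of the same sign. WT arrays were at 7.40, 7.75 and 7.40 and Apcmin arrays at 7.16, 7.56 and 7.25 (probe set 1416238_at). Apcmin replicate 2 lay above 2 of the 3 WT arrays. The means were 7.52 ± 0.20 and 7.32 ± 0.21, which differ by -0.20 (interval -0.62 to 0.23, limma adjusted p = 0.954). Leaving out WT replicate 2, the highest array, brought the difference to -0.08.

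Kdr, the VEGF receptor, gave 3.36, 3.27 and 2.87 on the WT arrays and 2.57, 2.99 and 3.47 on the Apcmin arrays (probe set 1449379_at). Both the highest and the lowest array were Apcmin. Its difference of -0.16 (interval -0.78 to 0.47, limma adjusted p = 0.961) lies among background values and became 0.06 without Apcmin replicate 1.

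**Figure D2:**
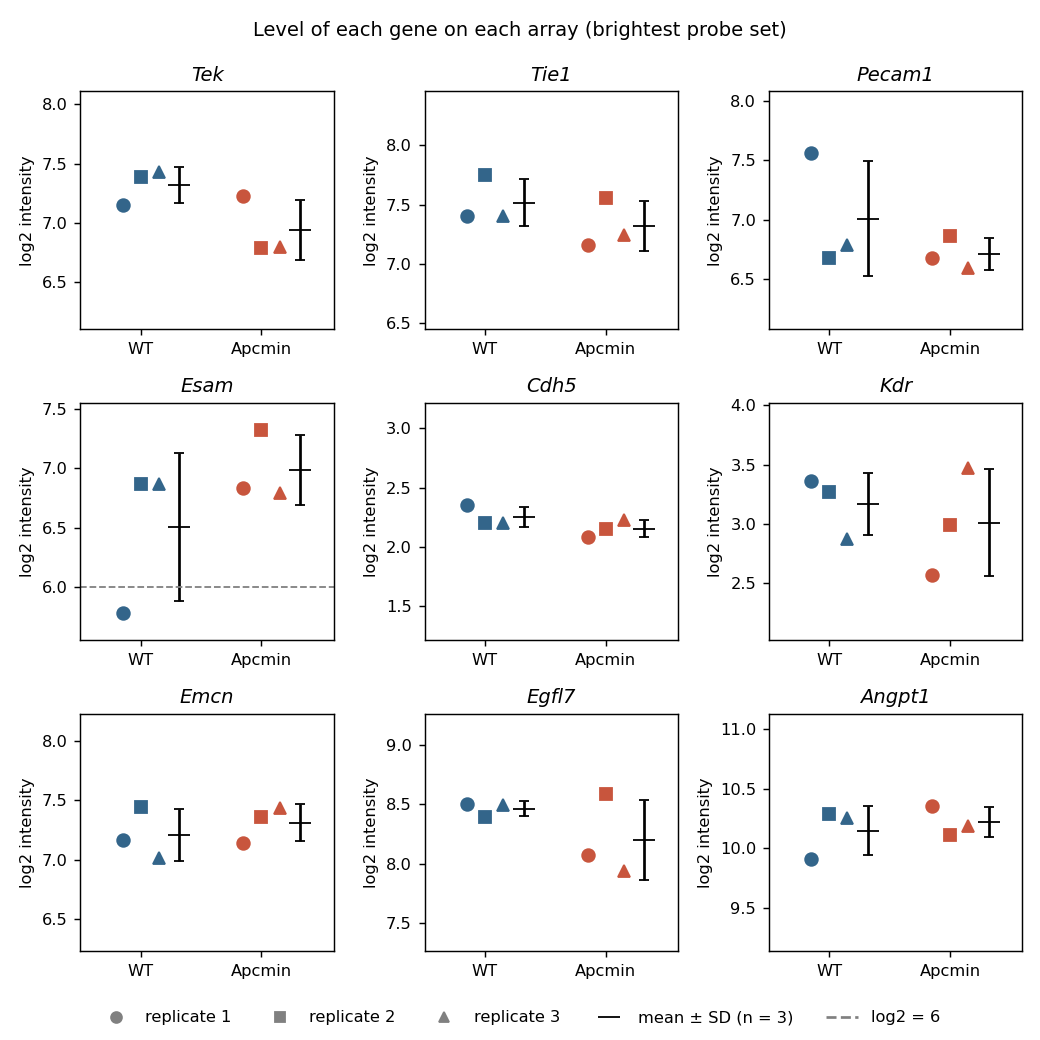
Log2 intensity (vertical axis, the same span of 2 units in each panel) of the probe set that stands for each of the 9 genes, on 3 WT and 3 Apcmin arrays (horizontal axis). Symbols give the replicate number, bars the mean ± SD, and the dashed line a log2 intensity of 6. WT and Apcmin values overlap in all 9 panels, and WT replicate 1 lies away from the other arrays for Pecam1 (7.56) and Esam (5.78).

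Pecam1, the adhesion molecule CD31, was set apart by a single WT array. It was at 7.56 on WT replicate 1, against 6.67 and 6.79 on the other WT arrays and 6.68, 6.86 and 6.60 on the Apcmin arrays (probe set 1421287_a_at). The other 5 arrays lay within 6.60 to 6.86. The mean difference was -0.30 (WT 7.01 ± 0.48, Apcmin 6.71 ± 0.13, interval -0.90 to 0.31, limma adjusted p = 0.954). Without WT replicate 1 it was -0.02.

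Esam, a junctional adhesion molecule that marks stem cells, deviated on the same array in the other direction. WT replicate 1 was at 5.78, while WT replicates 2 and 3 were both at 6.86 and the Apcmin arrays at 6.83, 7.32 and 6.79 (probe set 1460356_at). Esam had the largest difference of the 9 genes, 0.48 (6.50 ± 0.63 in WT, 6.98 ± 0.30 in Apcmin, interval -0.31 to 1.27, limma adjusted p = 0.954), and it was 0.12 without WT replicate 1. Pecam1 and Esam were thus 0.70 above and 0.96 below their 6-array means on 1 array, and whether this reflects the animal, the sort or the array was not tested.

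Cdh5, the cadherin of endothelial junctions, was measured by 2 probe sets, both at background. The brighter one (1422047_at) ran from 2.08 to 2.35 over the 6 arrays and the other (1433956_at) from 1.29 to 2.16. They differed in sign, with -0.10 (2.25 ± 0.08 in WT, 2.16 ± 0.07 in Apcmin, limma adjusted p = 0.956) and 0.11 (adjusted p = 0.969), and a further quantile normalization turned the first to 0.02. Of the 3 genes with more than 1 probe set, Egfl7 and Angpt1 had the same sign on all of theirs, and Cdh5 did not.

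Emcn, the vessel and stem cell sialomucin, was at 7.16, 7.44 and 7.01 in WT and at 7.14, 7.36 and 7.44 in Apcmin (probe set 1425582_a_at). The lowest and the highest array were both WT. Means of 7.21 ± 0.22 and 7.31 ± 0.16 left a difference of 0.10 with an interval from -0.31 to 0.52 (limma adjusted p = 0.960), and of 0.01 without WT replicate 3.

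Egfl7, the secreted vessel factor, was the gene with the most probe sets, and all 4 were lower in Apcmin without passing. The brightest (1451428_x_at) was at 8.51, 8.39 and 8.49 in WT and at 8.07, 8.58 and 7.94 in Apcmin. Apcmin replicates 1 and 3 lay below every WT array, but Apcmin replicate 2 was the highest of all 6. This probe set differed by -0.26 (8.47 ± 0.06 in WT, 8.20 ± 0.34 in Apcmin, interval -0.74 to 0.21, limma adjusted p = 0.954). Its suffix _x_at marks probes that can also bind other transcripts. The probe set 1451427_a_at, without that limit, was at 7.97, 7.96 and 7.71 against 7.27, 7.79 and 7.28, a difference of -0.44 with an interval from -0.90 to 0.02. The 2 dimmer probe sets differed by -0.47 (1435823_x_at, interval -1.01 to 0.07) and by -0.69 (1421335_a_at, interval -1.40 to 0.03). On 1421335_a_at the 3 Apcmin values (5.12, 5.73 and 5.79) lay below the 3 WT values (6.80, 6.03 and 5.88), though only 2 of its 6 values reached 6. Groups without overlap were found for 7.73% of all genes, each taken by its brightest probe set. Every Egfl7 interval included 0, and each of the 4 adjusted p-values from limma was 0.954. Leaving out any 1 array kept the sign on all 4, with extremes of -0.14 for the brightest and -0.87 for the dimmest. The 4 probe sets read the same 6 RNA samples and are not 4 independent tests.

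Egfl7 is the host gene of the miR-126 hairpin, which is known for restraining the cell cycle of stem cells. The sequence is shown because the arrays report only the host mRNA, with 0 probe sets carrying the symbol of the miRNA itself. The mature miR-126a-3p lies inside Egfl7 at chr2:26591402-26591423 on the plus strand (RefSeq, GRCm38.p6), downstream of all 3 annotated Egfl7 starts. Capitals mark its seed, bases 2 to 8.
mmu-miR-126a-3p: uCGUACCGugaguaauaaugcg

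**Figure D3:**
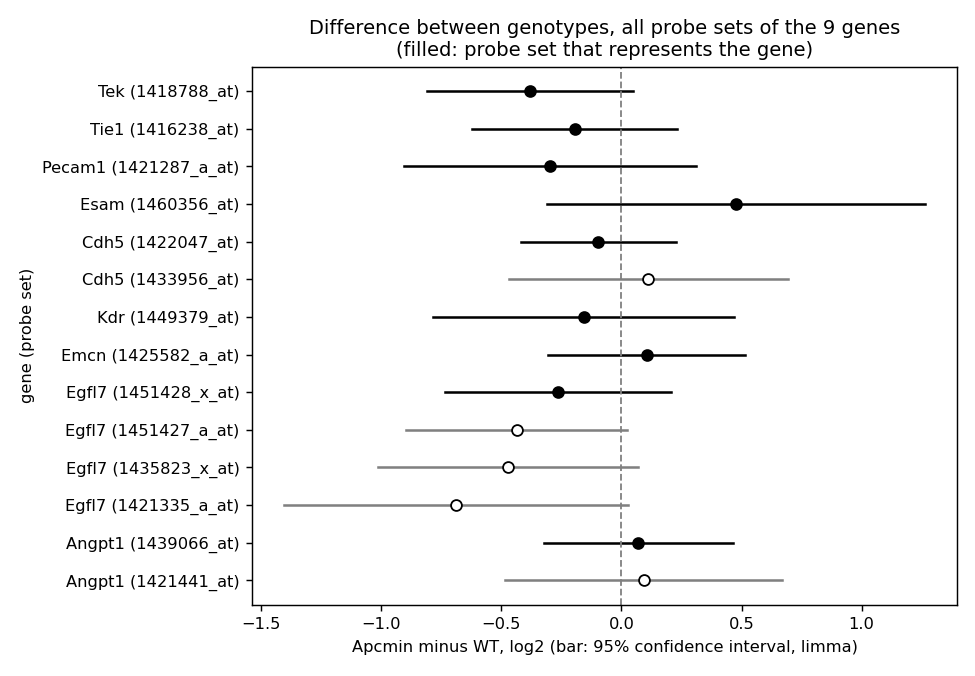
Difference Apcmin minus WT on the log2 scale (horizontal axis) for all 14 probe sets of the 9 genes (vertical axis), with 95% confidence intervals from limma; filled points stand for the gene. Every interval crosses 0, and the 4 Egfl7 probe sets lie on the negative side, from -0.69 to -0.26.

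As a set, 6 of the 9 genes were lower and 3 higher in Apcmin, with a median difference of -0.16, beside 57.0% lower and a median of -0.04 over all 18193 genes. The median of the 9 is the value of Kdr, which like Cdh5 was lower but lay at background. Among the 7982 genes well above background, the class of 6 of the 9, 44.1% were lower and the median was 0.02. Of those 6, Tek, Tie1, Pecam1 and Egfl7 were lower, and Angpt1 and Emcn were higher. Over the 7 genes with a mean of at least 6, which include Esam, the median was -0.20 and 3 were higher. At an adjusted p under 0.05, 0 of the 9 were called, and 0 of the 9 had an unadjusted p under 0.05. On the probe sets that stand for the genes, in 0 of the 9 did the 3 Apcmin values lie wholly on one side of the WT values. This held for 7.73% of all genes. The median of the 9 moved to -0.05 without WT replicate 1, to -0.06 without Apcmin replicate 1 and to -0.25 without WT replicate 3. Its size thus depends on single arrays. Confidence intervals of the 7 genes with a mean of at least 6 reached down to -0.90 and up to 1.27. Over the 15155 bright probe sets the median interval extended 0.41 to either side before any adjustment for the number of tests.

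**Figure D4:**
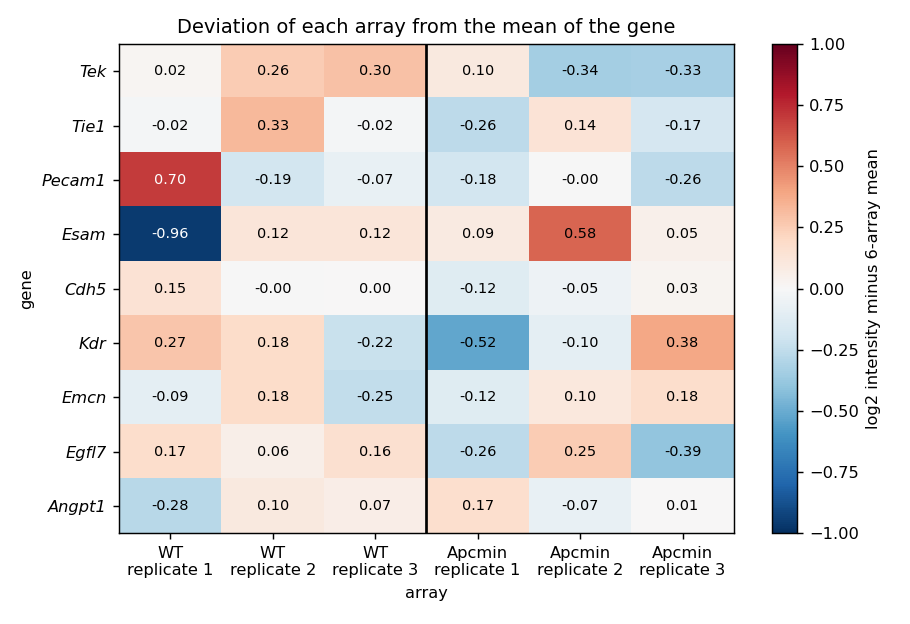
Log2 intensity of each array (horizontal axis) minus the 6-array mean of the gene (colour and printed number), for the 9 genes (vertical axis), with WT arrays left of the black line. The largest deviations are those of WT replicate 1 for Pecam1 (0.70) and Esam (-0.96), and no array is high or low for all 9 genes.

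The patterns over the arrays differed between the genes. Of the 6 genes well above background, Pecam1, Tek and Egfl7 had the largest spread over the 6 arrays, with SDs of 0.36, 0.28 and 0.26. For each, the 3 most similar genes were sought among 8657 other genes with a mean of at least 6, by the root mean square difference of centred log2 values. Closest to Egfl7 was Acvr1b, an activin receptor kinase, at 0.029, followed by Kctd1 (0.060) and Emid1 (0.063). Acvr1b was likewise highest on Apcmin replicate 2 (9.65) and lowest on Apcmin replicate 3 (9.01). Closest to Pecam1 were S100a13 (0.078), Mroh1 (0.085) and Pold4 (0.091), all of them highest on WT replicate 1. Closest to Tek were Fut7, a fucosyltransferase that makes selectin ligands (0.096), Mllt11 (0.098) and 9130019O22Rik (0.105). With 8657 candidates and 6 arrays, close matches of this kind are to be found for many genes.

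Partners of the 9 genes were described from lists, of which 0 genes were called (limma, adjusted p 0.954 or more throughout). Of 14 measured genes of angiopoietin and Tie signalling, 6 were well above background, 6 were higher and 8 lower, with a median of -0.03. The alternative ligand Angpt2 (4.60), the ligand Angpt4 (3.20) and the Tek phosphatase Ptprb (2.96) were below 6 on every array, on the log2 scale. Downstream of Tek, the regulatory subunit Pik3r1 of PI3 kinase averaged 9.73 ± 0.10 in WT against 9.88 ± 0.10 in Apcmin. The kinase Akt1 averaged 8.55 ± 0.03 against 8.66 ± 0.01. It was the only 1 of the 14 genes whose groups did not overlap, against 7.73% of all genes. Of 13 genes of VEGF signalling, 2 were well above background, the ligand Vegfb (difference 0.05) and the phospholipase Plcg1 (-0.04), and the median was -0.02.

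Junction partners had 10 of 17 genes well above background, 10 higher and 7 lower, with a median of 0.04. Ctnna1, alpha-catenin, which links cadherins to actin, averaged 8.71 ± 0.12 in WT against 8.88 ± 0.02 in Apcmin. Rap1a, a small GTPase of junction assembly, averaged 9.68 ± 0.06 against 9.51 ± 0.11. Neither pair of groups overlapped, and neither gene passed. These were the 2 of 17 junction partners without overlap, against 7.73% of all genes. Beta-catenin itself, Ctnnb1, the partner that Cdh5 shares with Apc, averaged 11.63 ± 0.13 against 11.72 ± 0.13. The cadherins Cdh1 (1.89) and Cdh2 (1.73) were below 6 on every array. Among 7 measured Pecam1 partners and sialomucins, 5 were well above background and the median was 0.001. Cd164, a sialomucin of progenitors, differed by 0.18 and Ptpn6, a phosphatase that docks on Pecam1, by -0.01.

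Among 18 other genes shared by stem cells and endothelium, 12 were well above background, with 8 higher, 10 lower and a median of -0.01. Icam2, an adhesion ligand of leukocyte integrins, ran from 9.0 to 9.13 over the WT arrays and from 8.83 to 8.93 over the Apcmin arrays. Its groups did not overlap, which held for 3 of the 18 genes and 7.73% of all genes. The difference of -0.20 (interval -0.51 to 0.11) did not pass. Selp, P-selectin, differed by 0.18, with Apcmin replicate 3 highest at 8.91. Of 18 transcription factors of blood and endothelium, 13 were well above background and the median difference was 0.02. Ldb1, a bridging cofactor of Lmo2 and Tal1, differed by -0.20 and Ets1 by 0.32, and both overlapped between the genotypes. The endothelial factors Sox17 (1.64), Sox7 (1.69) and Etv2 (2.73) were below 6 on every array, as were the vessel markers above.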

How the data were processed

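Gene expression was measured on 6 arrays of sorted marrow cells, 3 WT and 3 Apcmin, grouped by the titles. The deposited values are 1 normalized intensity per probe set on a linear scale. The submitters' processing notes list RMA, whose version is not given in the sources used here. Log2 was taken with no pseudocount. No source says whether the linear values are RMA values raised from log2, so levels and thresholds are log2 of the deposited values. Of 45101 probe sets, 64 controls were left out. Symbols came from GEO's platform annotation (34945 probe sets with 1 symbol, 932 with several, 9160 with none) and were looked up by Entrez identifier in RefSeq (GRCm38.p6), where 34741 matched and 0 changed.

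Genotypes were compared with limma 3.58.1 in R 4.3.3 (lmFit, eBayes, genotype only), with p-values adjusted by Benjamini-Hochberg over 45037 probe sets at 0.05. The limma step was tested on simulated data. The number of arrays limits the precision. Other settings were a further quantile normalization, a mean-variance trend, array weights, a replicate block, a floor at a log2 of 4, filters on dim probe sets, averaging a gene's probe sets and leaving out each array. Named genes were the 9 genes and, of each list, the 2 well above background with the smallest p; others named are examples of a list's levels, chosen after their values were seen. The genes and lists were chosen with earlier results of these data known.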

Additional observations from a re-analysis of the deposited data

How the results depend on the processing

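No setting called any probe set: 0 of 45037 passed with the further quantile normalization, trend, array weights, floor at 4 and each array left out, and 0 passed with either filter. Unadjusted p-values under 0.05 numbered 911 with the floor, 2717 with array weights and 5864 without WT replicate 3, against 1714 with all arrays and no such setting. The labels do not say whether the replicate numbers pair the samples. Deviations of same-numbered arrays from their group means correlated at -0.05, -0.07 and -0.23, and over bright probe sets at 0.05, -0.05 and -0.25. With 3 arrays per group these values show no shared deviation by number but cannot settle whether the samples were paired. With the replicate block 0 were called, with 1398 at an unadjusted p under 0.05.

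The median difference of the 9 genes was -0.16 and moved to -0.074 with a further quantile normalization and to 0 with values under 4 set to 4, where Kdr and Cdh5 become constant. It ranged from -0.25 to -0.050 with single arrays left out, WT replicate 3 and WT replicate 1 giving the ends. Of 131 differences of single genes under other settings, 127 kept their sign or became 0, and 0 passed. The 4 reversals were Cdh5 with the mean of its probe sets (0.0077) and with the quantile normalization (0.017), Kdr (range with single arrays left out -0.39 to 0.064) and Angpt1 (range -0.050 to 0.14). The cause was not tested. The count of genes well above background was 5 to 7 under the other thresholds. Using the brightest probe set without an _x_at or _s_at suffix, a setting chosen after seeing the data, left the median at -0.16.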

Other observations

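Ramp2 and Clec1a, from the endothelial and shared lists, had the largest upward differences among the listed genes and were chosen here after their values were seen. Ramp2, which pairs with Calcrl to form the adrenomedullin receptor of vessels, was at 3.91, 4.30 and 4.38 in WT and at 5.30, 5.52 and 5.28 in Apcmin, a difference of 1.17 (limma, standard error 0.18, adjusted p = 0.954). It was the only one of the 13 endothelial markers whose groups did not overlap, against 7.73% of all genes, and it stayed below 6 on every array. The other 12 markers were 10 lower and 2 higher in Apcmin, with a median of -0.15, beside 70.4% lower among the olfactory and vomeronasal receptor genes. Its partner Calcrl was at 9.90, 9.69 and 10.23 in WT and at 10.31, 10.06 and 9.83 in Apcmin, a difference of 0.12. Clec1a, a lectin-like receptor of endothelium, was at 3.47, 3.82 and 4.62 in WT and at 5.26, 5.07 and 4.66 in Apcmin (difference 1.02, limma adjusted p = 0.954). These values come from the brighter of its 2 probe sets and were below 6 on every array. Nrp1, a co-receptor for VEGF, had the largest downward difference, -0.93, with WT values of 7.21, 5.61 and 6.86 and Apcmin values of 5.81, 5.68 and 5.39, and its groups overlapped at WT replicate 2. Its interval ran from -1.90 to 0.03 (limma adjusted p = 0.954). This probe set, the brightest of 4 for Nrp1, reached 6 on only 2 arrays.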
